A study of Mus musculus with 9 samples.

Results

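The hair follicle differentiation genes examined here are Foxn1, Msx2, Dlx3, Gprc5d, Padi3, Tchh and Dsg4, 7 of the 18484 genes listed for each tumour, found by their gene symbols. In MS1210.1 and MS1349.1, the adenosquamous carcinomas (ASQC) of the series, 3 of these genes (Tchh, Gprc5d and Dsg4) were called higher than in 6 adenocarcinomas of no special type, AC(NST), across all genes tested. Tchh, which codes for trichohyalin, reached 3292 and 15830 normalized counts in the ASQC tumours and did not pass 57.2 in any AC(NST). In the same tumours 6 of 8 tested keratins of the inner root sheath, 3 of 11 of the hair shaft and 7 of 15 rows of upper epidermal genes were called higher, against 1.01% of all genes tested. All 6 sheath keratins, all 3 shaft keratins and 6 of the 7 epidermal rows passed the low-count filter through the ASQC tumours alone. So did Gprc5d and Dsg4. These genes had to differ to be tested, so the counts describe these libraries and are no independent support.

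A hair is built by cells that leave the matrix at the base of the follicle and harden as they rise. The transcription factors Foxn1, Msx2 and Dlx3 act in the matrix and in the cells that have just left it, and mice that lack Foxn1 are nude because their hair shafts break. Further up, cells of the inner root sheath and medulla fill with trichohyalin, Padi3 converts its arginines to citrulline so that it can be crosslinked, and cells of the shaft fill with hair keratins and keratin-associated proteins while Dsg4, a desmosomal cadherin, holds them together. Gprc5d is an orphan receptor of the zone in which hair keratins are laid down. Normal mammary epithelium makes no hair, although the mammary gland arises in the embryo, like the follicle, from a placode of the surface ectoderm.

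The tumours came from BlgCre-NeuKI mice on a mixed FVB/C57Bl6 background, which carry an activated rat Neu knocked into the endogenous Erbb2 locus behind a floxed STOP cassette. Cre is driven by the beta-lactoglobulin promoter, mainly in luminal mammary cells that lack the oestrogen receptor, so that all the groups share both alleles, each heterozygous, and differ in histotype, in amplification of the Neu locus and in whether the mouse was virgin or parous. Each of the 9 tumours gave 1 library. The ASQC tumours MS1210.1 and MS1349.1 and the AC(NST) tumour MS1166.1 were not/low-amplified and came from parous mice. The high-amplified tumours were 5 AC(NST), with MS1155.3 and MS1218.2 taken from parous and MS1163.1, MS1163.2 and MS1213.1 from virgin animals. The study set this status by qPCR of the Neu locus. It reports that MS1213.1 and MS1218.2 scored low by droplet PCR, and that exome data showed amplification in MS1213.1 but not in MS1218.2. The last tumour, MS1156.1, was a not/low-amplified sarcoma from a parous mouse. Ages were not given in the sources used here, and the labels of MS1163.1 and MS1163.2 share a mouse number. No ASQC tumour was high-amplified or virgin, and MS1166.1 is the single AC(NST) that shares both conditions with them, so that histotype, amplification and parity can be told apart only in part.

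Depth was between 12501225 and 23912429 reads on genes, and the ASQC libraries were the deepest pair. Summed over 8 markers of luminal mammary epithelium (among them Krt8 and Krt18), normalized counts were 86469 and 89850 in the ASQC tumours, between 33060 and 140452 in the AC(NST) and 421 in the sarcoma. In their other cell types 2 of the AC(NST) stood apart. MS1218.2 held 412969 normalized counts of 8 mesenchymal genes, against 34493 to 119767 in the other AC(NST), and is the sample that the study excepts from its estimate of high tumour cell purity. MS1163.2 held 4427 normalized counts of 10 skeletal muscle genes, against 29.4 to 421 in the other AC(NST), and the hair keratins of this tumour were also above those of most AC(NST), as given below. Levels here are counts divided by a size factor per tumour (normalized counts), and in bulk tissue fewer cells of a type and less RNA per cell cannot be told apart.

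Tchh, the structural protein that stiffens the inner root sheath and medulla, had the highest level per exon length of the 7 genes in both ASQC tumours. It lies on chromosome 3 (GRCm38, chr3:93442330-93449077, plus strand). The same chromosome holds the epidermal differentiation cluster, a set of epidermal genes that the study reports as activated in ASQC tumours. Whether Tchh rose apart from that cluster was not tested. The level of Tchh was 3292 normalized counts in MS1210.1 and 15830 in MS1349.1. The AC(NST) followed with MS1163.2 at 57.2, MS1213.1 at 32.7, MS1218.2 at 13.9, MS1166.1 at 7.14, MS1155.3 at 5.15 and MS1163.1 at 1.05. The groups did not overlap, and the lower ASQC value was 57.6 times the highest AC(NST) value. The edgeR quasi-likelihood test gave a log2 fold change of 8.94 ± 1.05 (SE, 2 ASQC against 6 AC(NST)) with an adjusted p of 0.00503. In MS1349.1 the 21667 Tchh reads were 0.0906% of all reads on genes (Wilson 95% interval 0.0894% to 0.0918%, counting error only), which ranked Tchh 84 among the genes of that library. In MS1210.1 the share was 0.0197% (0.0192% to 0.0203%) and the rank 1009. Leaving out MS1349.1 ended the call (adjusted p = 0.0621 by edgeR).

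The 250 bases before the RefSeq start of Tchh (GRCm38.p6, chr3:93442080-93442329, plus strand) are shown because Tchh carries the largest change. Capitals mark the 2 matches to the TCF/LEF core CTTTGA on either strand, which begin 158 and 144 bases before the start. The same letters occur in 16% of 32851 promoter windows of 300 bases, so a match is a description of the window and not a site.
Tchh: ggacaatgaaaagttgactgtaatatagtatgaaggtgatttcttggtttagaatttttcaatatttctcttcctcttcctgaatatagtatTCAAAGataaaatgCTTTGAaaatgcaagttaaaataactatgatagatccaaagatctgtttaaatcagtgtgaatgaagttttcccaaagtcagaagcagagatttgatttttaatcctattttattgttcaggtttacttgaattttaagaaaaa

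Gprc5d, the orphan receptor, was close to absent outside the ASQC tumours. It lies on chromosome 6 (chr6:135105991-135118283, minus strand) and stood at 40.8 normalized counts in MS1210.1 and 100.1 in MS1349.1. In the 6 AC(NST) it was 0.963 in MS1213.1, 0.926 in MS1218.2 and 0 in MS1163.1, MS1163.2, MS1155.3 and MS1166.1, which is 2 reads in all. The groups did not overlap. The ratio of the pooled counts, scaled by size factor, was 192 (exact 95% interval 52.4 to 1596.1, counting error only), and edgeR gave an adjusted p of 0.00793. In the 250 bases before its start (GRCm38.p6, chr6:135118284-135118533, minus strand, written 5′ to 3′ along the gene), shown because Gprc5d was called with Tchh, capitals mark the single match to the homeodomain core TAATTG, 135 bases before the start. That core is present in 8% of the promoter windows.
Gprc5d: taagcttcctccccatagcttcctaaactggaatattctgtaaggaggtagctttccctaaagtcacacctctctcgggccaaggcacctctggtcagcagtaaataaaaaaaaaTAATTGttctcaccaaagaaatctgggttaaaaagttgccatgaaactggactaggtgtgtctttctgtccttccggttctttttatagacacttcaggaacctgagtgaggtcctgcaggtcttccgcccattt

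Of the other members, the windows of Msx2, Foxn1 and Padi3 were searched and those of Dlx3 and Dsg4 were not analysed here. The Foxn1 core GACGC, found in 27.2% of all windows, occurred at 2 places in that of Msx2, and none of the 3 motifs was found in those of Foxn1 and Padi3.

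Dsg4, the desmoglein of the hair shaft (chr18:20436175-20471821, plus strand), was 55.6 normalized counts in MS1210.1 and 533 in MS1349.1. Among the AC(NST) it was highest in MS1163.2 at 7.46, followed by 2.10 in MS1163.1 and 0.926 in MS1218.2, and was listed at 0 in MS1213.1, MS1155.3 and MS1166.1. No AC(NST) reached the lower ASQC value. The log2 fold change was 7.36 ± 1.21 (SE) with an adjusted p of 0.0233 by edgeR, and of the 7 genes Dsg4 differed most between the ASQC tumours, its level in MS1349.1 being 9.59 times that in MS1210.1. The call was lost without MS1213.1, MS1163.1 or MS1218.2 (adjusted p between 0.0601 and 0.0677 by edgeR).

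Padi3, the deiminase that acts on trichohyalin (chr4:140785365-140810648, minus strand), was 240 normalized counts in MS1210.1 and 532 in MS1349.1. Of the AC(NST), MS1155.3 held 45.1, MS1218.2 16.7, MS1163.1 4.20 and MS1213.1 0.963, and MS1163.2 and MS1166.1 were at 0. The groups did not overlap, but the spread among the AC(NST) was wide. The log2 fold change of 5.11 ± 1.34 (SE) did not pass the threshold by edgeR (adjusted p = 0.160) and passed it by DESeq2 (adjusted p = 0.0192).

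Dlx3, a homeobox factor of the matrix and the inner root sheath that is also active in upper epidermis (chr11:95120119-95125296, plus strand), was nearly equal in the ASQC tumours, at 332 normalized counts in MS1210.1 and 323 in MS1349.1. The AC(NST) reached 65.5 in MS1213.1, 39.3 in MS1166.1, 24.5 in MS1155.3, 15.7 in MS1218.2, 7.35 in MS1163.1 and 6.21 in MS1163.2. It was thus present in every epithelial tumour, with the lower ASQC value 4.93 times the highest AC(NST) value. The log2 fold change was 3.62 ± 0.76 (SE), with an adjusted p of 0.0683 by edgeR (0.0488 without MS1213.1) and 0.00117 by DESeq2.

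Msx2 and Foxn1, the other transcription factors, overlapped between the histotypes. Msx2 (chr13:53466884-53473074, minus strand), a homeobox factor of the matrix that is also made by other epithelia and by mesenchyme, was 80.2 and 100.1 normalized counts in MS1210.1 and MS1349.1. The AC(NST) ran from 2.89 in MS1213.1 and 3.57 in MS1166.1 through 15.5 in MS1155.3, 22.0 in MS1163.1 and 46.0 in MS1163.2 to 131 in MS1218.2, which was above both ASQC tumours. MS1218.2 is also the epithelial tumour with most mesenchymal counts, whose part in its Msx2 level was not tested. The sarcoma held more of them (624343 normalized counts) and had Msx2 at 1.40. The log2 fold change was 1.28 ± 1.15 (SE, adjusted p = 0.772 by edgeR), and without MS1218.2 it was 2.33 (adjusted p = 0.327). Foxn1 (chr11:78357577-78386558, minus strand) was low throughout, at 10 reads or 7.03 normalized counts in MS1210.1 and 25 reads or 18.3 normalized counts in MS1349.1. MS1166.1 lay between them at 8.33, MS1163.2 had 1.24 from a single read, and the other 4 AC(NST) were at 0, where a count of 0 allows up to 2.78 to 3.86 normalized counts. Its log2 fold change was 2.97 ± 1.36 (SE, adjusted p = 0.531 by edgeR).

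In all, 3 of the 7 genes were called higher in ASQC by edgeR, against 1.01% of the 14517 genes tested, and none was called lower (0.0207% of genes tested). DESeq2 called 5 of 7, adding Dlx3 and Padi3, against 1.98%. In 5 of the 7 both ASQC tumours lay above every AC(NST), against 6.3% of the genes tested, and these 5 reached the smallest two-sided p (0.0714) that an exact permutation of 2 against 6 tumours can give. The median log2 fold change was 5.11 over the 7 genes and -0.07 over all genes tested. All 7 passed the filter on low counts, but Foxn1, Gprc5d and Dsg4 did so through the ASQC tumours alone, so that 2 of the 3 calls are of genes that had to differ to be tested. The count of 3 was the same without MS1163.2 and with the MS1163 tumours, of 1 mouse number, summed to 1 sample, and fell to 1 without MS1210.1 and to 0 without MS1349.1, where 4 of the 7 genes could be tested. With parity as a covariate 1 was called (Tchh), and among the parous tumours alone none was.

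**Figure D1:**
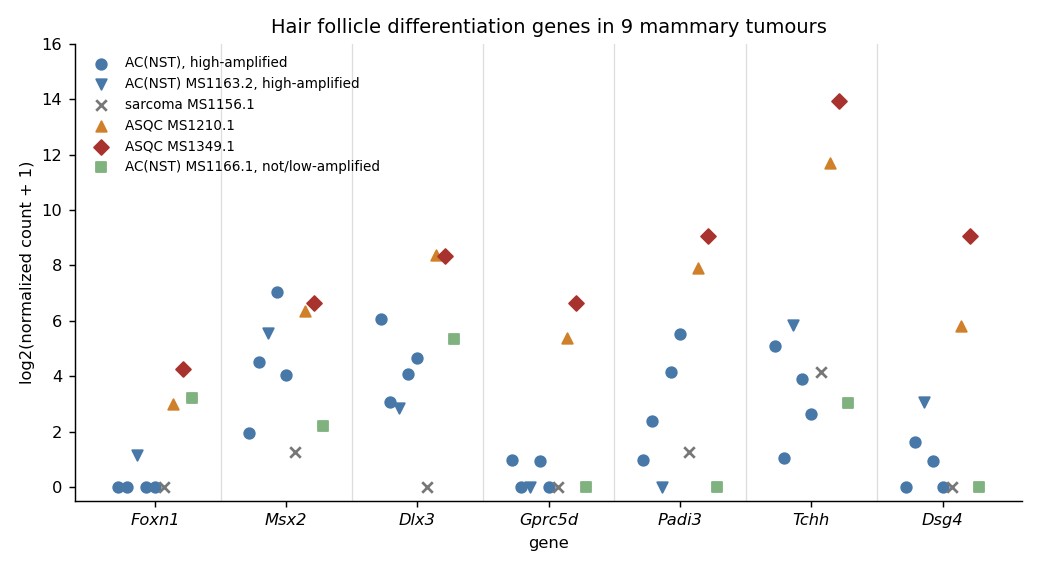
Normalized counts of the 7 genes in the 9 tumours, on a log2(normalized count + 1) scale, with 1 point per tumour and the gene on the horizontal axis. Both ASQC points lie above every AC(NST) point for Dlx3, Gprc5d, Padi3, Tchh and Dsg4, while MS1218.2 is highest for Msx2 and MS1166.1 lies between the ASQC tumours for Foxn1.

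The study grouped its tumours by amplification, and the same genes were therefore also compared between 3 not/low-amplified and 5 high-amplified tumours. None of the 7 was called by edgeR in this comparison, in which 0.599% of 14517 genes were called higher and 0.503% lower, although 6 had an unadjusted p under 0.05 (against 23.6% of all genes in either direction). DESeq2 called 5 of 7 (Foxn1, Dlx3, Gprc5d, Tchh and Dsg4), against 4.82%. Only Foxn1 had every not/low-amplified tumour above every high-amplified one, against 7.93% of genes tested, and it had a log2 fold change of 5.05 ± 1.06 (SE, adjusted p = 0.0550 by edgeR). For Dlx3, Gprc5d, Padi3, Tchh and Dsg4 the tumour that overlapped with the high-amplified ones was MS1166.1. Among the 6 AC(NST) MS1166.1 was at 0 for Gprc5d, Padi3 and Dsg4 and ranked 5 for Msx2, 4 for Tchh and 2 for Dlx3, counted from the highest. For Tchh the log2 fold change was 8.18 ± 1.74 (SE, adjusted p = 0.0553 by edgeR). These values share their tumours with the ASQC comparison and are no separate evidence. Among the AC(NST) alone, 1 not/low-amplified against 5 high-amplified, 4 genes could be tested and none was called. The log2 fold change was 0.74 for Dlx3, -1.56 for Tchh and -3.55 for Msx2, and Padi3 had no reads in MS1166.1, so that no fold is given for it. Here the lone tumour is assumed to vary like the others. In the comparison by amplification, 3 of the 7 were called without MS1166.1 (Gprc5d, Tchh and Dsg4) and 3 without MS1218.2 (Foxn1, Gprc5d and Tchh). The share of all genes called without these tumours is not given here, so these counts are not read as a result about the 7 genes.

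**Figure D2:**
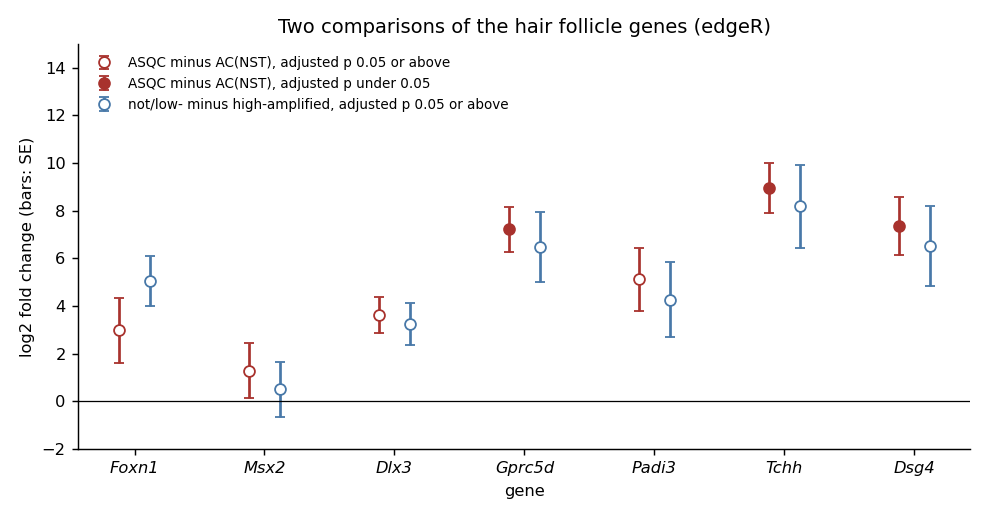
Log2 fold change of each gene for ASQC minus AC(NST) and for not/low-amplified minus high-amplified tumours, from edgeR, with bars of 1 standard error. Filled points (Tchh, Gprc5d and Dsg4, ASQC comparison) had an adjusted p under 0.05, and Foxn1 is the single gene whose value is larger in the comparison by amplification.

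The inner root sheath is the layer in which Tchh is laid down. Of its 9 listed keratins, 8 could be tested and 6 were called higher in ASQC (Krt25, Krt26, Krt27, Krt28, Krt72 and Krt73), against 1.01% of all genes tested, with a list median log2 fold change of 7.30, or 6.56 with Krt72, which was at 0 in every AC(NST), set to its lower bound at 3 counts per library. Krt73, a type II keratin of the sheath cuticle, was 537 and 2343 normalized counts in MS1210.1 and MS1349.1 and at most 1.24 in an AC(NST). Krt28, its type I counterpart in the sheath, was 362 and 471 against at most 0.926. Krt27 was 210 and 345 against at most 7.46, and Krt25 was 113 and 301 against at most 7.46. In each of these 4 both ASQC tumours lay far above the AC(NST). The other tested keratins overlapped (chosen after their values were seen): Krt71 was 10.6 and 129 with 53.4 in MS1163.2 (adjusted p = 0.637 by edgeR), and Krt75, of the companion layer, was 23.2 and 108.9 with 133 in MS1166.1 (adjusted p = 0.854).

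Of 16 hair shaft keratins listed, 14 were in the files and 11 could be tested. All 11 lay above every AC(NST) in both ASQC tumours, against 6.3% of genes tested, and 3 were called (Krt31, Krt32 and Krt81), with a median log2 fold change of 6.25, or 6.13 with Krt82 at its bound. Krt33a was 127 and 429 normalized counts in MS1210.1 and MS1349.1 and 23.6 in MS1163.2. Krt83 was 57.7 and 311 with 49.96 in MS1166.1, Krt31 was 64.0 and 232 with at most 4.97 in an AC(NST), and Krt86 was 21.1 and 212 with at most 7.46. Keratin-associated proteins, which crosslink the keratins of the shaft, are coded by 44 genes in the files, of which 7 could be tested and 4 were called (Krtap1-5, Krtap16-1, Krtap3-3 and Krtap9-3). The highest in normalized counts were Krtap7-1 at 9.85 and 115 normalized counts, Krtap8-1 at 17.6 and 97.2, Krtap15 at 0 and 89.9, and Krtap1-5 at 68.9 and 76.7. Reads with several positions were dropped by the authors, so levels of these near-identical families are uncertain. In all, 13 hair structural genes of these 3 lists were called, of 26 tested and 67 in the files, against 1.01% of all genes tested. Each of the 13 passed the filter on low counts through the ASQC tumours alone, as did 21 of the 26 tested, so that the count describes these libraries and is no independent support. The count was 0 among parous tumours alone, 10 with the MS1163 tumours summed, 10 without MS1163.2, 3 without MS1213.1 or MS1163.1, 2 without MS1218.2 and 5 without MS1155.3. It was also 0 with the filter at 10 counts in 3 tumours and with either ASQC tumour left out. In these settings none of the 13 could be tested, so those values of 0 were set by the filter.

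Few regulators of the matrix and genes of the placode and stem cells passed the test. Of 15 matrix regulators 14 could be tested and 1 was called higher, Shh, the ligand made in the matrix and early hair germ, at 9.85 and 59.2 normalized counts against at most 1.24 in an AC(NST). The list median was 1.79, and 1.01% of all genes tested were called. In 6 of the 14 both ASQC tumours lay above every AC(NST), against 6.3% of all genes tested. Among these 6, Hoxc13 was 7.74 and 19.7 and at 0 in every AC(NST) (adjusted p = 0.163 by edgeR). Prdm1, also among them, was called by DESeq2 (adjusted p = 0.0164) and not by edgeR (0.115). Foxq1, a factor of the medulla, was 3654 and 776 in the ASQC tumours and 2448 in MS1166.1, against 13.6 to 129 in the high-amplified tumours. It was called higher in not/low-amplified tumours (log2 fold change 4.85 ± 0.72 SE, adjusted p = 0.0307 by edgeR). Cux1, Gata3 and Vdr gave adjusted p values between 0.637 and 0.946 for ASQC. Of 12 placode and stem cell genes 8 could be tested and 1 was called, Lgr5, a marker of follicle stem cells, at 601 and 496 against at most 120.4. In 2 of the 8, Lgr5 and Lgr6, both ASQC tumours lay above every AC(NST). Lgr6, another stem cell receptor, was 3421 and 3528 in the ASQC tumours and 1619 in MS1166.1 (adjusted p = 0.407), and Sox9, Krt15 and Nfatc1 also missed the threshold (adjusted p between 0.385 and 0.991).

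The relatives of the 7 genes were checked from 23 paralogues, of which 18 could be tested. Of these, 5 were called higher in ASQC (Dsg1a, Dsg1b, Dsg3, Padi4 and Tchhl1), against 1.01% of all genes tested, and the list median was 0.07, beside -0.07 over all genes. Dsg3, a desmoglein of basal and lower suprabasal squamous cells, was 7488 and 1449 normalized counts against 241 to 477 in the AC(NST). The paralogues that epithelial cells of the gland use, Dsg2 and Gprc5c, had log2 fold changes of -0.02 and -0.20. Padi2 had one of -3.03 (adjusted p = 0.404 by edgeR and 0.0286 by DESeq2).

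Genes of the upper epidermis were higher in the same ASQC tumours. Of 20 listed genes of suprabasal epidermis, 15 rows could be tested (Flg stands in 4 rows of the files), all 15 lay above every AC(NST) (6.3% of all genes did), and 7 were called, against 1.01% of all genes (Asprv1, Flg, Hrnr, Ivl, Rptn, Sprr1b and Tgm3), with a median log2 fold change of 5.22. Of the 15 rows, 9 passed the filter through the ASQC tumours alone, among them 6 of the 7 called. Asprv1, a protease of the granular layer, was 31158 and 3966 normalized counts in MS1210.1 and MS1349.1 against at most 374. Rptn, repetin, was 8180 and 3066 against at most 2.38. Tgm1 (2023 and 1686, at most 713 in an AC(NST)) and Klk7 (1203 and 1211, at most 122) were not called. Of genes that dominate the epidermis between follicles, chosen after their values were seen, Krt10 stood at 42.9 and 140.3, Krt1 at 27.4 and 113, Lor at 0.703 and 20.5, and Krt2 at 0 and 0.731. Krt10 and Krt1 lay above every AC(NST) and were called by DESeq2 (adjusted p = 0.00377 and 0.00231) but not by edgeR (0.0781 and 0.0672), and Lor and Krt2 were too low to be tested. The count of 7 was 5 without MS1163.2 or with the MS1163 tumours summed, 4 without MS1213.1 and 0 without either ASQC tumour. With either ASQC tumour left out, the 6 that passed the filter through the ASQC tumours alone could not be tested.

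The balance of hair and epidermal genes differed between the ASQC tumours, whose depths were nearly equal. Of the genes with at least 10 normalized counts in either tumour, 6 of the 7 hair follicle genes were higher in MS1349.1, by factors of 1.25 for Msx2, 2.22 for Padi3, 2.45 for Gprc5d, 2.60 for Foxn1, 4.81 for Tchh and 9.59 for Dsg4. Dlx3 was 0.973 times its level in MS1210.1. All 13 shaft keratins and all 27 keratin-associated proteins were higher in MS1349.1, with median ratios of 5.31 and 6.09, as were 7 of 8 sheath keratins with a median of 2.44. Of the 27 keratin-associated proteins, only 4 reached 10 normalized counts in MS1210.1. The rest entered through MS1349.1 alone and had to be higher there, so their count and median are largely set by the selection. Of the 13 shaft keratins, 11 reached 10 in MS1210.1. Of 16 epidermal rows, 10 were higher in MS1349.1 (median 1.47). The sum of the epidermal list was 43663 in MS1210.1 and 12037 in MS1349.1. Most of that sum was Asprv1 (31158 and 3966) and Rptn (8180 and 3066), so its direction rests on these genes and not on the list as a whole. The median ratio over all genes tested was 0.996. This compares 1 library with another and has no replicate check.

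**Figure D3:**
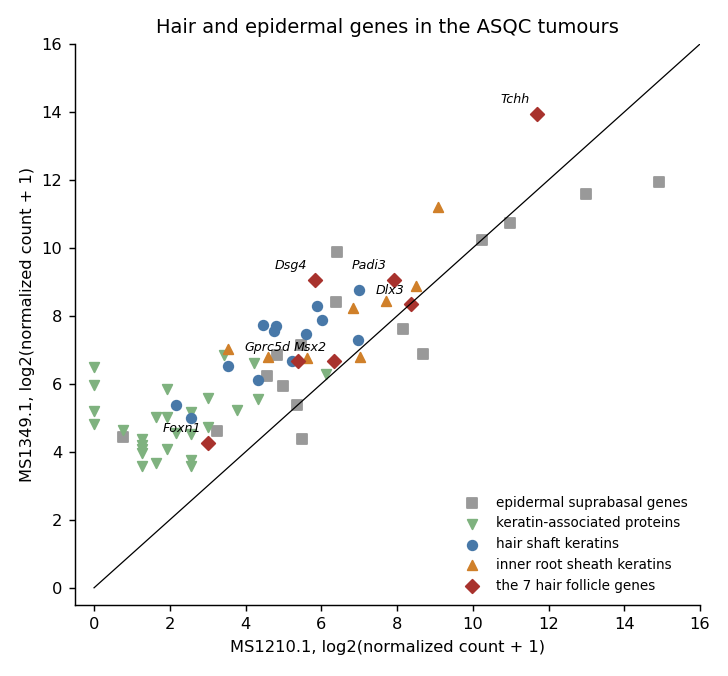
Normalized counts of hair and epidermal genes in MS1210.1 (horizontal) and MS1349.1 (vertical), both as log2(normalized count + 1), for genes with at least 10 in either tumour, with the line of equal level. Shaft keratins and keratin-associated proteins all lie above the line, whereas epidermal genes lie on both sides of it. Most keratin-associated proteins reached 10 in MS1349.1 alone and so had to lie above the line.

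Whether the libraries also held other cells of skin was read from their markers. Of 7 melanocyte markers in the files, summed levels were 24.6 and 23.4 normalized counts in MS1210.1 and MS1349.1 and 15.4 to 59.7 in the AC(NST). Pmel made up most of this in the ASQC tumours at 18.3 and 16.8, Tyrp1 and Slc45a2 were at 0 in both, and Dct was 0 and 0.731. The 10 skeletal muscle genes, which mark the muscle sheet under mouse skin as well as body muscle, summed to 21.1 and 30.0 in the ASQC tumours, at the low end of the epithelial tumours. Myh4 and Pvalb were at 0 in both.

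Among 8 sebaceous markers the sum was 16857 and 1393 in the ASQC tumours against 100.2 to 477 in the AC(NST). Nearly all of it was Krt79, a keratin of the follicle funnel and sebaceous duct, at 16802 and 1204 normalized counts (adjusted p = 0.0293 by edgeR, the 1 gene called of 3 tested). The defining lipid enzymes were low, with Awat1 at 1.41 and 1.46, Dgat2l6 at 2.11 and 0 and Awat2 at 16.9 and 23.4 against up to 57.8 in an AC(NST), while Scd3 was 29.5 and 149 against up to 109. Elovl3 was 3.52 and 10.2 and at 0 in every AC(NST). Of 3 Langerhans and Merkel cell markers, Cd207 was 23.9 and 11.7 against up to 20.6, Krt20 was at 0 in both and Atoh1 was 0 and 0.731. Of 4 dermal papilla markers, Crabp1 was 699 in MS1210.1 and 8.77 in MS1349.1, the tumour with more Tchh. Sox2 was 15.5 and 4.38 against up to 3.15 in an AC(NST), Hhip was 1.41 and 2.19 against up to 6.21, and Corin was at 0 in both. Apart from Krt79, none of the skin markers tested was called, but few could be tested. These were 1 melanocyte, 3 sebaceous, 1 Langerhans and Merkel cell and 1 dermal papilla marker. Elovl3, Sox2 and Awat1 lay above every AC(NST) in both ASQC tumours but were too low to be tested.

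MS1163.2, the AC(NST) with most hair structural reads, differed from the ASQC tumours in its proportions. Its summed hair structural genes were 237 normalized counts, against 8.7 to 188 in the other AC(NST) and 2198 and 7240 in the ASQC tumours. Within the AC(NST), MS1163.2 had the highest level of 26 of the 35 such genes that were detected there and reached 10 normalized counts in an epithelial tumour, and it held reads of 19 of the 44 keratin-associated protein genes, where no other AC(NST) held more than 3. Skeletal muscle in MS1163.2 was 18.6 times the summed hair structural level, against 1.27 to 4.44 times in the other AC(NST). Melanocyte markers were 0.251 times that level, inside the 0.127 to 2 of the other AC(NST). In MS1210.1 and MS1349.1 the muscle ratio was 0.0096 and 0.00414 and the melanocyte ratio 0.0112 and 0.00323. These ratios fall as hair structural counts rise, and those counts were largest in the ASQC tumours. Tchh was 0.241 times the hair structural level in MS1163.2, 0.038 to 3.78 times in the other AC(NST), and 1.50 and 2.19 times in the ASQC tumours. Padi3 and Gprc5d were at 0 in MS1163.2. Where in the tissue the hair genes were made was not tested.

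**Figure D4:**
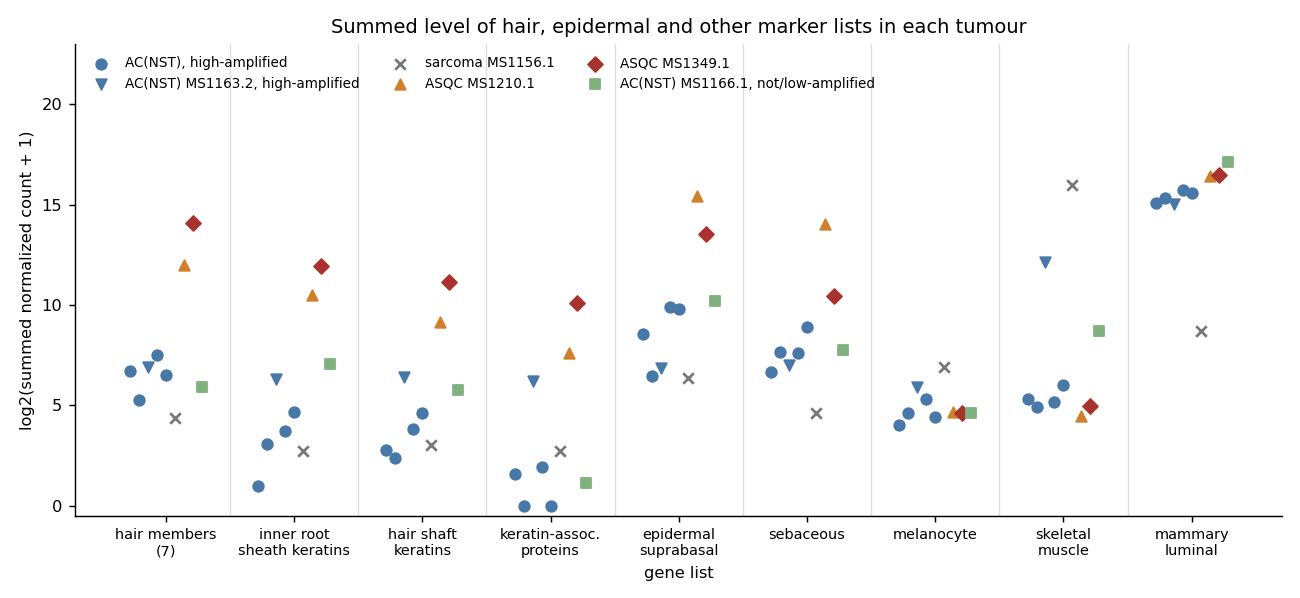
Summed normalized counts per tumour for the 7 genes and 8 gene lists, as log2(sum + 1), with 1 point per tumour. The ASQC tumours are highest in the hair, epidermal and sebaceous lists, the last through Krt79, and MS1163.2 is the highest epithelial tumour for skeletal muscle.

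Ordered per length, as FPKM (reads scaled to exon length and to the reads on genes), the 7 genes in MS1349.1 ran Tchh 156, Padi3 8.83, Dsg4 8.77, Dlx3 7.09, Gprc5d 4.14, Msx2 1.75 and Foxn1 0.325. In MS1210.1 the order was Tchh 33.9, Dlx3 7.64, Padi3 4.17, Gprc5d 1.77, Msx2 1.47, Dsg4 0.958 and Foxn1 0.131. Tchh was first and Foxn1 last in both, and the genes between them changed places. Padi3 and Dsg4 in MS1349.1 are neighbours that a single library cannot separate.

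The genes whose pattern over the 8 epithelial tumours was most like the mean pattern of the 7 were taken from 12489 candidates by Pearson's r of log2 values, as a description. They were Krt73 (r = 0.996), Krt28, Krt72, Calm4, Dsg1a, Hrnr, Gata2, Idi2, Erc2 and Dsc1 (r = 0.972). Krt73, Krt28 and Krt72 are sheath keratins, Dsg1a and Dsc1 are desmosomal cadherins of suprabasal cells and Hrnr is an epidermal matrix protein. Gata2, a transcription factor, was 725 and 3598 normalized counts in the ASQC tumours against 15.5 to 108 in the AC(NST). By Spearman's rank correlation none of these 10 was among the top 10, and with a pseudocount of 10 in place of 1 there were 6.

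The sarcoma MS1156.1, which was in no test, held Tchh at 16.7 normalized counts (12 reads), inside the range of the AC(NST), and Msx2 and Padi3 at 1.40, a single read each. Foxn1, Dlx3, Gprc5d and Dsg4 were at 0 there, where a count of 0 allows up to 4.19. Its summed hair structural genes were 18.1 and its skeletal muscle genes 63866.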

How the data were processed

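RNA of 9 snap-frozen mammary tumours was depleted of ribosomal RNA and made into strand-specific libraries, which were sequenced in pairs. The authors aligned reads to mouse build 38 with STAR (unique positions, unstranded settings) and counted them per gene with HTSeq. The strand setting of the counting was not given in the sources used here. The deposited counts are whole reads per gene, and the deposited signal values of the 8 epithelial tumours are these counts divided by 1 size factor per tumour. The sarcoma was scaled to the same reference here.

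Counts were tested with edgeR 4.0.16 (TMM, glmQLFit and glmQLFTest, Benjamini-Hochberg) under R 4.3.3 over 14517 genes that had 10 counts or more in 2 or more of the 8 tumours. A gene was called with an adjusted p under 0.05 and more than 2-fold change. Standard errors were derived from the F statistic. The study used DESeq2 by amplification, and DESeq2 1.42.0 and limma 3.58.1 were alternatives, with other scalings, filters, parity and left-out tumours. Where nothing says that tumours came from separate mice, p-values measure the spread between these samples. Single genes were compared by exact permutation (scipy). The edgeR step was tested on simulated data.

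Positions and exon lengths are from GENCODE M21 (GRCm38), promoters from RefSeq (GRCm38.p6, 250 bases before to 50 after the start), matched by symbol for 5 of the 7 genes. Named genes were all 7 members and up to 4 of each list by highest normalized count. Markers of other skin cell types past 100 normalized counts in an ASQC tumour were named too. So were genes a count of 5 or fewer refers to and the 10 most alike in pattern (candidates reached 100 normalized counts in an epithelial tumour). All genes that were called in the hair and epidermal lists are also named. Members and lists were chosen with earlier results of these data known. Lists of basal epithelial (7 genes) and mesenchymal markers (8) had no gene called by histotype. Of the 7 basal genes 2, Krt5 and Trp63, lay above every AC(NST) in both ASQC tumours, against 6.3% of genes tested. Krt14 was 51708 normalized counts in MS1210.1 and 5122 in MS1349.1, against up to 6495 in an AC(NST). The limit that a count of 0 allows was set at 3 counts in every library, whatever its depth, and intervals cover counting error only.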

Additional observations from a re-analysis of the deposited data

Results flagged for a closer look

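Among the AC(NST), single tumours stood far from the rest of their group in 13 of 56 tests of the highest or lowest value (Dixon's ratio at the 95% level, 14 quantities, the 6 AC(NST) or the 5 high-amplified ones). That level assumes normally distributed values, while many values here are counts near 0. The groupings also share tumours, so no chance rate is given for these flags. Foxn1 was 8.33 normalized counts in MS1166.1 (7 reads) against 0 to 1.24 in the other AC(NST), and the 1.24 of MS1163.2 stood out among the high-amplified tumours from a single read. Msx2 was 131 in MS1218.2 against 2.89 to 46.0. Padi3 was 45.1 in MS1155.3 against 0 to 16.7. Dsg4 was 7.46 in MS1163.2 (6 reads) against 0 to 2.10, in both groupings.

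MS1163.2 also stood out in the summed hair shaft keratins, at 84.5 normalized counts against 4.20 to 23.2 in the other high-amplified tumours, and in keratin-associated proteins, at 73.3 against 0 to 2.78. In the same tumour skeletal muscle genes summed to 4427 against 29.4 to 421. The part of muscle or of skin in these values was not tested. Sebaceous markers summed to 477 in MS1155.3 against 100.2 to 212.

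The sarcoma, which entered no comparison, held Tchh at 16.7 normalized counts (12 reads), above the limit that a count of 0 allows.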

How the results depend on the processing

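Every one of the 7 genes had a positive log2 fold change for ASQC under each alternative that could test it, and what changed was the number called. Of 7, 3 were called at first, 5 by DESeq2 and by limma with a pseudocount of 10, 1 with at least 10 counts in 3 tumours (4 genes tested) and with parity as a covariate, and 0 among parous or not/low-amplified tumours alone. Leaving out single tumours gave 0 to 3. Hair structural genes called, 13 at first, were 0 with the stricter filter, 2 with parity as a covariate, 0 among parous and among not/low-amplified tumours, and 0 to 14 without single tumours. Epidermal genes called, 7 at first, were 11 by DESeq2, 0 with the stricter filter, 1 with parity as a covariate, 1 among parous and 0 among not/low-amplified tumours, and 0 to 8 without single tumours. With the stricter filter or either ASQC tumour left out, the 13 structural genes and 6 of the 7 epidermal genes could not be tested. By amplification, 0 of 7 became 5 by DESeq2, 1 with no filter and 0 to 3 without single tumours. Genes with the smallest permutation p were 5 at first and 5 to 6 without single AC(NST). Alternatives with fewer tumours or a stricter filter test fewer genes, and for the others the cause was not tested. Apart from DESeq2, the share of all genes called under each alternative is not given here, so these counts lack that comparison.

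Signs turned only by amplification. Among AC(NST) alone, with MS1166.1 as the single not/low-amplified tumour, the fitted log2 values were 0.74 for Dlx3, -1.56 for Tchh, -3.55 for Msx2 and -6.61 for Padi3 (median -2.56). Padi3 had no reads in MS1166.1, so its value and the median depend on the prior count and are no measured fold. Msx2 was also -0.27 with parity as a covariate, -0.30 among parous tumours and -0.051 without MS1349.1, within a range of -0.051 to 1.52 over single tumours left out. Thinning all libraries to 12501225 reads, an alternative added after seeing the data together with the pseudocount, averaged and left-out tumours of the permutation test, gave 3 genes called for ASQC and 0 by amplification. No paired analysis was possible because replicate numbers only name the tumours. With the MS1163 tumours, of 1 mouse number, summed, 3 members, 10 structural and 5 epidermal genes were called, and with them averaged 5 members had the smallest p (0.0952) that 2 against 5 can give. Counts of 0 to 7 reads limit Foxn1, Gprc5d and Dsg4 in AC(NST).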
